A study of Homo sapiens with 8 samples.

Results

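The data describe 9 genes with which a cell detects viral RNA and turns an interferon signal into transcription. They are the RNA sensors *DDX58* (RIG-I, named *RIGI* in present annotation), *IFIH1* (MDA5) and *TLR3*, the adaptor *MAVS*, the interferon regulatory factors *IRF1*, *IRF3*, *IRF7* and *IRF9*, and *STAT2*. They were chosen by name, and all 9 were among the 13307 genes of the deposited table. Earlier results of these data were known when these genes and the lists below were chosen. Their counts beside the shares of all genes are therefore descriptions and not tests. mRNA of Panc-1, a cell line from a human pancreatic ductal carcinoma, was sequenced in 4 groups of 2 libraries: siControl, siPHF13, siControl + TGFβ and siPHF13 + TGFβ. siControl cells received a non-targeting siRNA and siPHF13 cells siRNA against *PHF13*, a PHD finger protein that binds trimethylated histone H3 lysine 4. The methods list 2 siRNA duplexes against it and do not say whether they were pooled. TGFβ was given at 10 ng/ml for 48 h. Every library, the controls included, came from cells transfected with siRNA and a lipid reagent, and no group without transfection was analysed here. siPHF13 and siControl cells thus differed in the siRNA they received as well as in *PHF13*. An effect of the siRNA itself was not tested, and these libraries cannot tell it apart from loss of PHF13. Depletion below names the comparison of siPHF13 with siControl cells. No source used here says that the libraries of a group were separate cultures, so that p-values measure only the spread between these libraries.

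In most cells RIG-I and MDA5 bind viral double-stranded RNA in the cytosol and signal through MAVS on the outer mitochondrial membrane, while TLR3 binds double-stranded RNA in endosomes. Both routes lead to phosphorylation of IRF3 and IRF7, which then switch on interferon genes. Secreted interferon acts through its receptor and Janus kinases, and STAT2 and IRF9 are subunits of ISGF3, the factor that binds the interferon-stimulated response element (ISRE). IRF1 binds similar sites and is itself induced by interferon and NF-κB, and several of the sensors are interferon-inducible, so that the pathway reinforces itself.

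The libraries held 39196214 to 46700806 reads on genes. Values are normalized counts, that is, reads divided by a size factor of the library, and changes are on the scale of log2(normalized count + 1). A gene was called changed at an adjusted p under 0.05 (limma with Benjamini-Hochberg adjustment over all genes) and an absolute log2 fold change over 0.58. *PHF13* itself was at 1804 and 1662 normalized counts in siControl against 524 and 558 in siPHF13, and at 1709 and 1586 in siControl + TGFβ against 513 and 529 in siPHF13 + TGFβ (log2 fold change -1.68 and -1.66). Of the ductal epithelial markers, 5 of 5 were in the table (*KRT7*, *KRT8*, *KRT18*, *KRT19* and *EPCAM*), whereas those of acinar, endocrine, endothelial, plasmacytoid dendritic and B cells were not. Of 5 leukocyte markers, *CD68* and *CD14* were present and *PTPRC*, *CD3E* and *LYZ* were not. *CD68*, a lysosomal protein, was at 6137 to 7666 normalized counts in the siControl groups and 10524 to 13400 in the siPHF13 groups and made up nearly all of their sum (6161 to 7710 against 10577 to 13426). *CD14* went the other way without TGFβ, from 78.7 and 74.8 to 41.8 and 47.3, and was not called. The fibroblast markers were *COL1A1* alone of 4, at 3345 and 3433 in siControl, 1922 and 1887 in siPHF13, 16414 and 15334 in siControl + TGFβ and 4909 and 4691 in siPHF13 + TGFβ. The summed ductal markers were at 193424 to 203975 in siControl, 171764 to 194400 in siPHF13, 121692 to 127368 in siControl + TGFβ and 138409 to 150094 in siPHF13 + TGFβ. The sum hides unlike changes. On depletion without TGFβ *KRT8* and *KRT18* fell and *KRT7* overlapped. *KRT19* rose from 32426 and 34318 to 38578 and 40977, and *EPCAM* from 157 and 158 to 241 and 306. With TGFβ *KRT19* rose from 18358 and 18991 to 30351 and 32788, and *EPCAM* from 135 and 115 to 225 and 258. *KRT8*, which fell on depletion without TGFβ, rose with it, and *KRT7* and *KRT18* overlapped. The part of these shifts in the results on the 9 genes was not tested. Fewer cells with a transcript and less of it per cell cannot be told apart in these bulk libraries.

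The promoters of the 4 genes that fell on depletion are shown with matches to the motifs of factors that act in this pathway. The RefSeq table of promoters (GRCh38.p14) held 7 of the 9 genes, without *IRF3* and *IRF7*. Each line gives the 180 bases before the start site, 5′ to 3′ on the strand of the gene, and for *TLR3* 6 further bases that complete a match. *IRF1* is at chr5:132490774-132490953 (minus strand), *DDX58* at chr9:32526197-32526376 (minus), *IFIH1* at chr2:162318685-162318864 (minus) and *TLR3* at chr4:186068976-186069161 (plus). Capitals mark matches to the motifs named after the lines.
IRF1: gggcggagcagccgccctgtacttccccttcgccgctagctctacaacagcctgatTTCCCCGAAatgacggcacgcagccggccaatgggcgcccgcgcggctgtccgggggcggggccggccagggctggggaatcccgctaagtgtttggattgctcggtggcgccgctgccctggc
DDX58: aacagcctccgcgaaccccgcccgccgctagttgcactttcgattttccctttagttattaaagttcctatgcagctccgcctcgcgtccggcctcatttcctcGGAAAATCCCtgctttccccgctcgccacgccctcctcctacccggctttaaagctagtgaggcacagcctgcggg
IFIH1: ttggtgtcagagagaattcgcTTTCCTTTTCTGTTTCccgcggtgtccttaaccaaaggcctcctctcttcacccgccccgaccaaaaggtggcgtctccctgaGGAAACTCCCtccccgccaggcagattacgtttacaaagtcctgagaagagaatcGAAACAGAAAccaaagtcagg
TLR3: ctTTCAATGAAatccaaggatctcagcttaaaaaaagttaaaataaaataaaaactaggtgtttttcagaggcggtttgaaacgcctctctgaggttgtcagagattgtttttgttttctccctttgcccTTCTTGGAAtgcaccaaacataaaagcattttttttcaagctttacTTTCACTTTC

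The motifs were the ISRE (GAAANNGAAA), the gamma interferon activation site GAS (TTCNNNGAA), the NF-κB site (GGGANNTTCC) and the SMAD box (GTCTAGAC), read on both strands in windows from 250 bases before to 50 after the start. In *IRF1* the capitals are a GAS match that begins at -124. In *DDX58* they are an NF-κB match at -76. *IFIH1* held 3 ISRE matches, of which those at -159 and -153 overlap and the other lies at -21, and an NF-κB match at -76. *TLR3* held GAS matches at -178 and -50 and an ISRE match at -4 that spans the start site. Among the other genes *IRF9* held a GAS match at -63, and *STAT2* and *MAVS* held no match in this window. Of 35116 promoters of this length, 3.57% held the ISRE, 7.66% the GAS, 1.61% the NF-κB site and 0.202% the SMAD box. A match describes letters and not a bound site. The patterns were fixed, so that variants of a site were not marked, such as ggggaatccc in the *IRF1* line for NF-κB. The lack of a match therefore does not show that a site is absent.

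The transcripts of all 3 RNA sensors and of *IRF1* were lower in siPHF13 than in siControl cells, with and without TGFβ. *MAVS*, *IRF3*, *IRF7*, *IRF9* and *STAT2* were not called in either comparison. Without TGFβ 4 of the 9 genes were called lower and 0 higher, where 10.4% of all genes were called lower and 7.95% higher. With TGFβ the same 4 genes were called lower and 0 higher, against 11.7% of all genes called lower and 8.81% higher. The median log2 fold change of the 9 genes was -0.52 without and -0.25 with TGFβ, against 0.00 over all genes in each case. Both depleted libraries lay below both control libraries for 6 of the 9 genes without TGFβ, a pattern that 38.8% of all genes showed, and for 5 of 9 with TGFβ, against 36.1%.

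**Figure D1:**
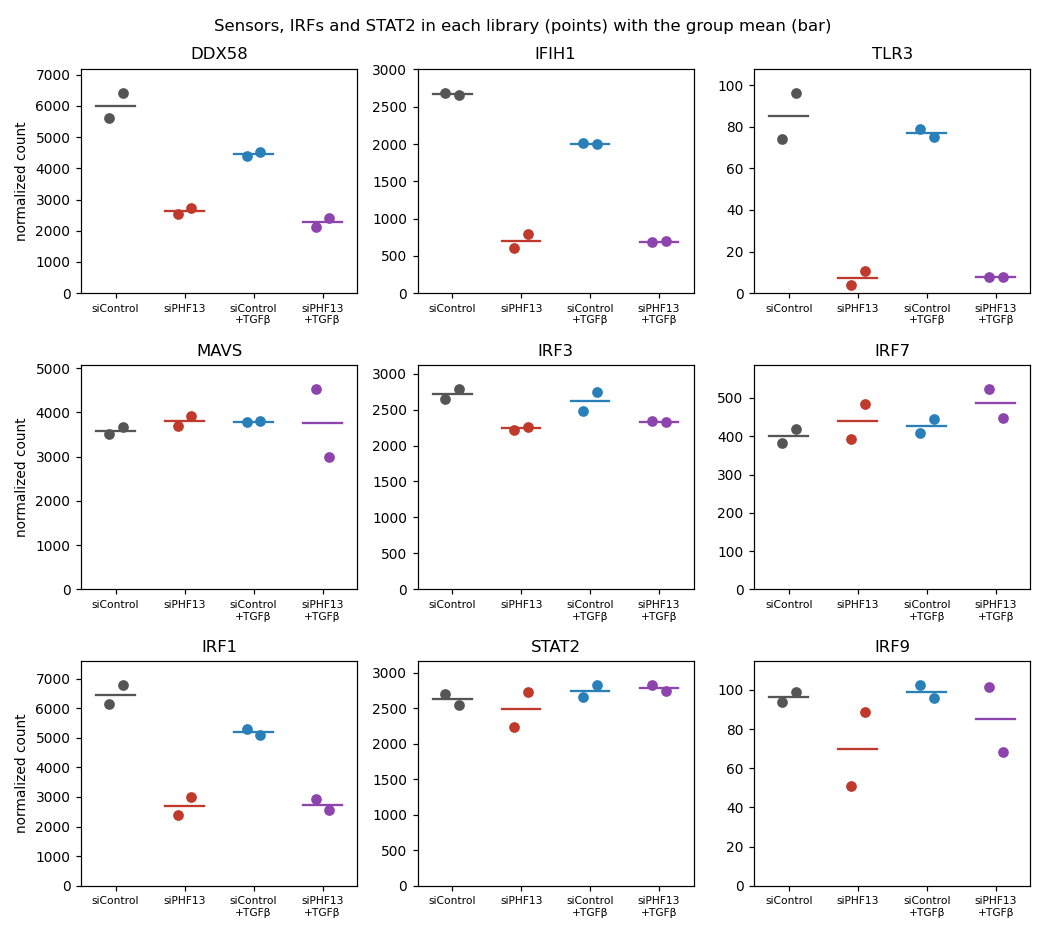
Normalized counts (y axis, linear from 0) of the 9 genes in the 4 groups (x axis), with a point for each library and a bar for the group mean. *DDX58*, *IFIH1*, *TLR3* and *IRF1* sit lower in both siPHF13 groups than in the matching siControl group, while *MAVS* spreads from 2990 to 4533 in siPHF13 + TGFβ alone.

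*TLR3*, the endosomal sensor, showed the steepest fall of the 9 genes. It was at 74.0 and 96.4 normalized counts in siControl and at 3.98 and 10.9 in siPHF13, which rest on 4 and 11 reads. With TGFβ it was at 78.7 and 75.1 in siControl and at 7.56 and 7.70 in siPHF13, which rest on 7 and 8 reads. The control and depleted libraries were far apart, but the level left after depletion was near the depth of the libraries. On the log2 scale the change was -3.48 (SE 0.48, adjusted p = 5.043e-05, limma) without and -3.17 (SE 0.48, adjusted p = 9.724e-05, limma) with TGFβ, an 11.1-fold and a 9.03-fold fall. Without siPHF13 replicate 1 the value without TGFβ was -2.85 and without siPHF13 replicate 2 it was -4.10, so that the fold, though not the call, rests on which of these libraries is used. The gene lies on the plus strand of chr4:186990310-187009227 (GRCh37) with 5 exons.

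*IFIH1*, which codes for MDA5, the sensor of long double-stranded RNA, was at 2689 and 2658 normalized counts in siControl and at 601 and 788 in siPHF13. In the presence of TGFβ it was at 2010 and 2004 in siControl and at 680 and 694 in siPHF13. The depleted libraries thus held 26% of the control level without and 34.2% with TGFβ, and no library of one kind came near the other. This gave log2 fold changes of -1.96 (SE 0.11, adjusted p = 1.523e-08, limma) and -1.55 (SE 0.11, adjusted p = 1.012e-07, limma). The gene spans chr2:163123584-163175194 (GRCh37, minus strand, 16 exons).

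*DDX58*, which codes for RIG-I, the sensor of RNA with a 5′ triphosphate, was the most abundant sensor per length. It was at 5598 and 6424 normalized counts in siControl and at 2527 and 2736 in siPHF13, and at 4395 and 4536 in siControl + TGFβ against 2132 and 2424 in siPHF13 + TGFβ. All 4 depleted libraries were below all 4 control libraries. Depletion gave a log2 fold change of -1.19 (SE 0.08, adjusted p = 1.194e-07, limma) without and -0.97 (SE 0.08, adjusted p = 6.121e-07, limma) with TGFβ. The gene lies at chr9:32455300-32526194 (GRCh37, minus strand, 18 exons). A read-through gene model on the same strand shares 96.6% of its exon bases but is not in the table.

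*MAVS*, the adaptor that RIG-I and MDA5 share, was at 3513 and 3665 normalized counts in siControl and at 3694 and 3922 in siPHF13. With TGFβ it was at 3774 and 3799 in siControl and at 4533 and 2990 in siPHF13. The siPHF13 + TGFβ libraries lay on either side of all others. The log2 fold change was 0.09 (95% confidence interval -0.20 to 0.37) without and -0.04 (-0.32 to 0.24) with TGFβ. Without TGFβ, changes of the size seen for the sensors lie outside the interval. Both intervals use a spread shared by the 4 groups. The standard deviation of *MAVS* was 1091 normalized counts in siPHF13 + TGFβ and 17.8 to 161 in the other groups. The interval with TGFβ may therefore be too narrow and does not bound the change. With TGFβ the value was -0.34 without siPHF13 + TGFβ replicate 1 and 0.26 without replicate 2, and its sign therefore rests on a single library. The gene lies at chr20:3827481-3856765 (GRCh37, plus strand, 7 exons).

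*IRF1*, a transcription factor that drives interferon-stimulated and antigen presentation genes, fell to less than its control level in every depleted library. Without TGFβ it was at 6125 and 6777 normalized counts in siControl and at 2380 and 3013 in siPHF13. With TGFβ it was at 5301 and 5110 in siControl and at 2915 and 2564 in siPHF13. Its log2 fold change was -1.27 (SE 0.10, adjusted p = 3.326e-07, limma) without and -0.93 (SE 0.10, adjusted p = 4.873e-06, limma) with TGFβ, or 2.41-fold and 1.90-fold lower. The gene lies at chr5:131817301-131826465 (GRCh37, minus strand, 10 exons). *IRF1-AS1* on the opposite strand overlaps 16.3% of its exon bases and is not in the table. The sources used here do not say whether the counting used strand, and without strand reads of both cannot be told apart.

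*IRF3*, the factor that the sensors activate first and that is made without interferon, was at 2647 and 2787 normalized counts in siControl and at 2220 and 2264 in siPHF13. With TGFβ it was at 2485 and 2741 in siControl and at 2342 and 2324 in siPHF13. The groups did not overlap in either case, but the differences were small. The log2 fold change was -0.28 (adjusted p = 0.006285, limma) without TGFβ, under the threshold on the fold change, and -0.16 (adjusted p = 0.07796, limma) with TGFβ. The gene lies at chr19:50162829-50169114 (GRCh37, minus strand, 8 exons), and *BCL2L12* on the opposite strand overlaps 14.2% of its exon bases. *BCL2L12* had a log2 fold change of -0.07 without and 0.24 with TGFβ, and was called in neither comparison.

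*IRF7*, which amplifies the interferon response in most cell types once it has been induced, was at 381 and 418 normalized counts in siControl and at 394 and 485 in siPHF13. With TGFβ it was at 409 and 445 in siControl and at 524 and 448 in siPHF13. The log2 fold change was 0.13 (95% confidence interval -0.17 to 0.43) and 0.18 (-0.12 to 0.48), not called in either case. The libraries overlapped without TGFβ and just missed each other with it. The gene lies at chr11:612555-615950 (GRCh37, minus strand, 11 exons).

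The ISGF3 subunits *STAT2* and *IRF9* were not called either. *STAT2* was at 2704 and 2553 normalized counts in siControl and at 2244 and 2733 in siPHF13, and at 2664 and 2824 in siControl + TGFβ against 2827 and 2742 in siPHF13 + TGFβ. The log2 fold change was -0.09 (95% confidence interval -0.27 to 0.10) without and 0.02 (-0.17 to 0.21) with TGFβ, and the libraries overlapped in both comparisons. *STAT2* lies at chr12:56735381-56753891 (GRCh37, minus strand, 24 exons) and *IRF9* at chr14:24630474-24635774 (plus strand, 9 exons). *IRF9*, the DNA-binding subunit, was at 93.9 and 99.1 normalized counts in siControl, at 50.7 and 88.8 in siPHF13, at 102 and 95.7 in siControl + TGFβ and at 101 and 68.3 in siPHF13 + TGFβ. Its depleted libraries differed widely from each other. The log2 fold change was -0.52 (95% confidence interval -1.15 to 0.12) without and -0.25 (-0.88 to 0.39) with TGFβ, intervals wide enough to hold a fall past the threshold on the fold change. Without siPHF13 replicate 2 the gene was called lower at -0.91 (adjusted p = 0.0384, limma). A read-through gene model shares 93.1% of the exon bases of *IRF9* and is not in the table.

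**Figure D2:**
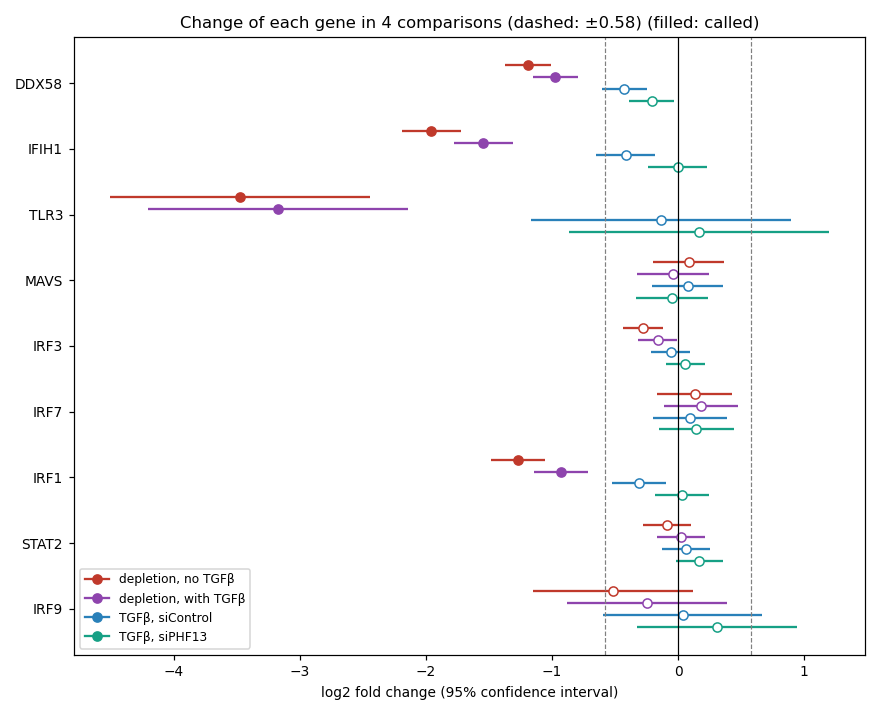
Log2 fold change (x axis) of each gene (y axis) with its 95% confidence interval in the 2 depletion and 2 TGFβ comparisons; filled points were called and the dashed lines stand at 0.58 on either side of 0. The filled points are those of *DDX58*, *IFIH1*, *TLR3* and *IRF1* after depletion, from -0.93 to -3.48, and no TGFβ comparison has one.

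TGFβ lowered none of the 9 genes past both thresholds. In siControl cells 0 of 9 were called by limma, where 4.79% of all genes were called in either direction, and edgeR and DESeq2 also called 0. At an unadjusted p under 0.05 there were 3 genes (*DDX58*, *IFIH1* and *IRF1*), all with lower values, against 28.4% of all genes, so that 3 of 9 is near the background. *DDX58* had a log2 fold change of -0.43 (adjusted p = 0.003082, limma) and *IFIH1* of -0.41 (adjusted p = 0.01876, limma), both under the threshold on the fold change, which left 74.3% and 75.1% of the untreated level. *IRF1* had -0.31 (adjusted p = 0.0517, limma). Both TGFβ-treated control libraries lay below both untreated ones for these 3 of the 9 genes, near the 30.2% of all genes that showed this pattern, whereas *TLR3* overlapped (log2 fold change -0.13, 95% confidence interval -1.17 to 0.90).

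In siPHF13 cells TGFβ again gave 0 called genes among the 9 by limma, edgeR and DESeq2, where limma called 1.35% of all genes. At an unadjusted p under 0.05 there was 1 of 9, *DDX58*, with a log2 fold change of -0.21 (adjusted p = 0.2534, limma), against 13.9% of all genes. *IFIH1* was at 0.00 (95% confidence interval -0.24 to 0.23) and *IRF1* at 0.03 (-0.19 to 0.24). Whether TGFβ acted differently in depleted and control cells was tested as an interaction, the response in siPHF13 minus that in siControl. It was called for 0 of the 9 genes by limma, edgeR and DESeq2, and by limma for 0.308% of all genes. At an unadjusted p under 0.05 there were 2, *IFIH1* at 0.41 (adjusted p = 0.3696, limma) and *IRF1* at 0.34 (adjusted p = 0.4512, limma), against 9.46% of all genes. A difference in the depletion effect with and without TGFβ was thus not shown for any of the 9.

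Per kb of exon the order of the genes changed with depletion. In siControl it was *IRF1* (1815 normalized counts per kb), *IRF3* (1703), *DDX58* (1299), *IFIH1* (747), *STAT2* (597), *MAVS* (306), *IRF7* (208), *IRF9* (59.4) and *TLR3* (14.2), and of these neighbours only *IRF1* and *IRF3* overlapped between libraries. In siPHF13 *IRF3* led with 1406 per kb, ahead of *IRF1* with 759. *DDX58* (569) there overlapped *STAT2* (565), and *IFIH1* (194) had dropped below *MAVS* (325) and overlapped *IRF7* (229). *IRF9* (42.9) and *TLR3* (1.23) remained the lowest. In siControl + TGFβ *IRF3* (1638) lay above *IRF1* (1465) and *STAT2* (623) above *IFIH1* (560), with no neighbours overlapping. In siPHF13 + TGFβ *STAT2* (632) lay above *DDX58* (492), and *MAVS* (321) and *IRF7* (253) overlapped. Lengths are those of the canonical transcript (GENCODE v44 on GRCh37), from 1595 bases for *IRF3* to 11731 for *MAVS*, and other transcripts would change the order.

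The other parts of the pathway were read from lists of known genes, whose counts stand beside the shares of all genes. On depletion without TGFβ 10.4% of all genes were called lower and 7.95% higher, and with TGFβ 11.7% lower and 8.81% higher. Among other nucleic acid sensors 11 of 16 were in the table, and 7 of the 11 were called lower and 0 higher on depletion without TGFβ (median log2 fold change -1.02). *OAS2* at -1.68, *DDX60* at -1.44 and *OAS1* at -1.44 fell most. The OAS enzymes make the second messenger that activates RNase L on double-stranded RNA. With TGFβ 4 were called lower and 0 higher (median -0.40), led by *OAS1* (-1.21), *DDX60* (-1.10) and *OAS2* (-1.06). In siControl cells, where 1.52% of all genes were called lower, TGFβ lowered 2 of them, *OASL* (-0.71) and *DHX58* (-0.65), which codes for LGP2, the relative of RIG-I and MDA5 without a signalling domain.

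All 17 adaptors and kinases downstream of the sensors were in the table, and 1 was called lower and 1 higher without TGFβ (median -0.10), shares near those of all genes. *IKBKE*, the inducible relative of the kinase TBK1, fell by 1.28 without and by 1.27 with TGFβ, and *TBKBP1*, which binds TBK1, rose by 0.64 without TGFβ. *IKBKE* was at 546 and 586 normalized counts in siControl and at 232 and 232 in siPHF13. With TGFβ 1 of 17 was called lower and 0 higher (median -0.19). *TBK1* was not called, at -0.12 and -0.08.

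Among 20 regulators of sensing, all in the table, 6 were called lower and 0 higher without TGFβ (median -0.14). The same count, 6 lower and 0 higher, was found with TGFβ (median -0.17). *USP18*, which removes ISG15 and dampens the interferon receptor, was at 357 and 335 normalized counts in siControl against 52.7 and 54.3 in siPHF13, a log2 fold change of -2.67. *TNFAIP3* (A20), an inhibitor of NF-κB, had -1.5 and *SOCS1*, an inhibitor of Janus kinases, -1.07. With TGFβ *USP18* had -2.31, *TNFAIP3* -1.39 and *NLRC5*, the activator of MHC class I genes, -1.39.

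On the receiving side, 3 of 9 interferon receptors and Janus kinases were called lower and 0 higher without TGFβ (median -0.25), all 9 being in the table. *IFNAR2*, a chain of the type I interferon receptor, was at 1499 and 1348 normalized counts in siControl and at 658 and 657 in siPHF13 (log2 fold change -1.11). *IL10RB*, which serves the type III receptor, had -0.73 and *IFNAR1*, the other type I chain, -0.63. With TGFβ 2 were called lower and 0 higher (median -0.16), *IFNAR2* (-1.12) and *IFNAR1* (-0.62). Of 8 interferon genes 2 were in the table. *IFNE* was called lower in both comparisons (-0.81 and -1.08), and *IFNL1*, at 0.96 to 26.6 normalized counts over the 8 libraries, in neither. *IFNB1* and *IFNA1* were not in the table.

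Of 11 other IRFs and STATs 8 were in the table, and 1 was called lower and 0 higher in each depletion comparison (medians -0.26 and -0.15), a share near that of all genes. This was *IRF5*, a factor downstream of Toll-like receptors, at 213 and 211 normalized counts in siControl against 76.6 and 73.0 in siPHF13 (log2 fold change -1.49), and at -1.17 with TGFβ.

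Among interferon-stimulated targets, the effector genes downstream of ISGF3, 17 of 20 were in the table, and 8 were called lower and 0 higher without TGFβ (median -0.57), led by *CMPK2* (-2.60), *XAF1* (-2.20) and *MX1* (-1.62). With TGFβ 5 were called lower and 0 higher (median -0.24), led by *XAF1* (-1.83), *CMPK2* (-1.60) and *IFI44* (-1.34). Depth limits *CMPK2*, which was at 42.7 and 56.8 normalized counts in siControl and at 5.97 and 8.88 in siPHF13. With TGFβ it was at 35.6 and 24.7 in siControl and at 10.8 and 7.70 in siPHF13. TGFβ in siControl cells lowered 5 of the 17, where 1.52% of all genes were called lower. These were *IFIT2* (-1.24), *IFIT1* (-1.18), *MX1* (-0.95), *IFIT3* (-0.83) and *HERC5* (-0.64). The interaction was called for 2 of the 17, against 0.308% of all genes in either direction. They were *IFIT2* (0.78, adjusted p = 0.02553, limma) and *IFIT3* (0.76, adjusted p = 0.04596, limma), the latter close to the threshold. Of 12 NF-κB and inflammatory targets 8 were in the table, and 3 were called lower and 0 higher in each depletion comparison (medians -0.46 and -0.39). Without TGFβ these were *CCL5* (-2.17), *NFKBIA* (-1.53) and *NFKB2* (-1.01), and with it *CCL5* (-1.35), *NFKBIA* (-1.24) and *NFKB2* (-0.90). TGFβ lowered 2 of the 8 in siControl cells, *CCL5* (-0.90) and *CCL20* (-0.93), against the same 1.52% of all genes. In siPHF13 cells no gene on these lists passed both thresholds for TGFβ (limma).

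**Figure D3:**
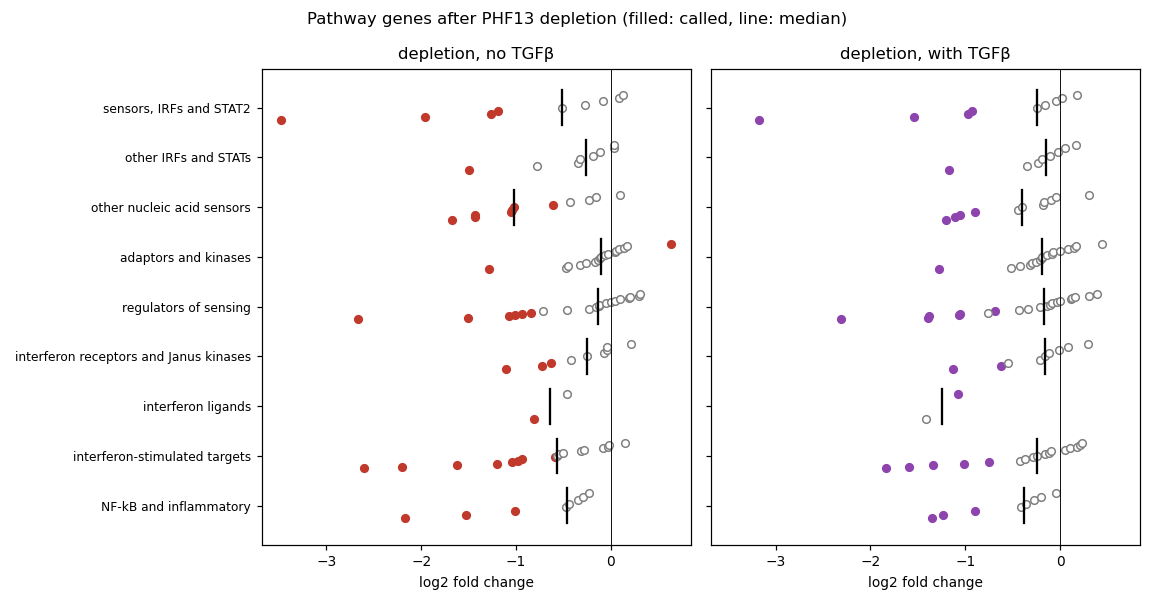
Log2 fold change after depletion (x axis) without TGFβ (left) and with TGFβ (right) for the 9 genes and for each list of pathway genes (y axis), with a point for each gene in the table, filled where called, and a line at the median. The other nucleic acid sensors have the lowest median of the longer lists (-1.02 and -0.40), and the only filled point above 0 is *TBKBP1* (0.64).

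For the 4 called genes, the genes with the most similar profile were found by the root mean square distance between centred log2 values over the 8 libraries. Genes averaging under 100 normalized counts were left out, which left about 11200 candidates. For *IRF1* they were *CXCL2* (distance 0.0565), *TNFAIP2* (0.071) and *EBI3* (0.0836), beside a spread of *IRF1* itself of 0.569. For *DDX58* they were *MORC4* (0.0835), *ARRB2* (0.0838) and *SLFN11* (0.0912), against 0.571, and for *IFIH1* they were *HLA-F* (0.092), *BIRC3* (0.113) and *APOL1* (0.149), against 0.893. The closest to *TLR3* were *SAMD9L* (0.48), *DLL1* (0.503) and *TPSG1* (0.524), against a spread of 1.7. They were farther off both in absolute terms and relative to that spread.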

How the data were processed

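The authors trimmed paired-end reads with Trim Galore 0.4.1, mapped them with STAR 2.7.0 to hg19, counted reads on exons per gene with HTSeq 0.12.4 and deposited a signal per gene and library, gene counts divided by DESeq2 size factors. The annotation release and strand setting are not given in the sources used here. In addition 3 tables of the authors' own comparisons hold fold changes, standard errors and p-values, and were not used. In each of the 8 libraries 100% of values were whole multiples of one step (within 1e-06 of a read), so that whole reads could be recovered.

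Changes came from one fit over all 8 libraries of log2(normalized count + 1) with limma 3.58.1 (R 4.3.3) and a trended prior variance, without a replicate block. A minimum of 10 normalized counts in 2 libraries removed no gene. The procedure was tested on simulated data. On whole reads, the count models called 2437 (edgeR 4.0.16) and 2422 (DESeq2 1.42.0) genes for depletion without TGFβ and 2724 and 2692 with TGFβ, where limma called 2448 and 2726. Replicates of a group differed by 3.66 to 23.7 times the counting variance, so no counting intervals are given. Replicate numbers did not pair the libraries alike in all groups: of 6 pairs of groups, 1 had a correlation of same-numbered deviations over 0.1. This was siControl + TGFβ with siPHF13 + TGFβ (0.27). The values were negative for siPHF13 with siPHF13 + TGFβ (-0.25) and with siControl + TGFβ (-0.15), and 0.01 to 0.07 otherwise. Some deviations were thus shared between libraries of different groups, in part crosswise.

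Named are the 9 genes and *PHF13* in every comparison, the 3 listed genes of each list with the largest called changes on depletion, every called one in the TGFβ comparisons and the interaction, and the 3 nearest profiles of each called gene. *TBK1*, *IFNL1*, *IFNB1*, *IFNA1*, *BCL2L12* and *IRF1-AS1* were added after values had been seen. A gene of these lists is not reported here. The genes and lists were chosen with earlier results of these data known. Gene positions are from GENCODE v44 on GRCh37. Alternatives were another pseudocount (5), a minimum mean of 100, no minimum, TMM rescaling, the replicate block, only the libraries compared, edgeR, DESeq2, no threshold on the fold change and each library left out.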

Additional observations from a re-analysis of the deposited data

How the results depend on the processing

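*DDX58*, *IFIH1*, *IRF1* and *TLR3* were called lower in both depletion comparisons under every alternative that gave a value; a minimum mean of 100 removed *TLR3* and *IRF9*. With the replicate block 4 genes were called in each, and it changed no call among the 9 genes. Pairing siPHF13 libraries crosswise with siPHF13 + TGFβ libraries, an alternative chosen after seeing the data, called 244 of all genes for TGFβ in siPHF13 cells against 179. Over the alternatives the log2 fold change without and with TGFβ was -1.44 to -1.10 and -1.02 to -0.84 for *IRF1*, -1.29 to -1.09 and -1.07 to -0.88 for *DDX58*, -2.15 to -1.76 and -1.56 to -1.53 for *IFIH1*, and -4.10 to -2.85 and -3.33 to -2.70 for *TLR3*. Without a threshold on the fold change, 2 of the 9 genes were called for TGFβ in siControl cells (*DDX58* and *IFIH1*) and *IRF3* was added to depletion without TGFβ, since these genes had passed the adjusted p alone. Over all genes that setting called 6308 for depletion, 2114 for TGFβ in siControl cells, 6712 for depletion with TGFβ and 409 for TGFβ in siPHF13 cells. With each library left out, the interaction called 12 to 111 of all genes, against 41.

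Some changes that were not called took either sign with a library left out, and the cause was not tested. For depletion these were *STAT2* (-0.23 to 0.0572) and *IRF7* (-0.0195 to 0.28). With TGFβ they were *STAT2* (-0.0206 to 0.0638), *IRF9* (-0.53 to 0.0356) and *MAVS* (-0.34 to 0.26). For TGFβ in siControl cells they were *IRF9* (-0.0121 to 0.0855), *TLR3* (-0.32 to 0.0546) and *IRF3* (-0.13 to 0.0132). For TGFβ in siPHF13 cells they were *IRF1* (-0.14 to 0.20), *IRF7* (-0.00372 to 0.30), *IRF9* (-0.091 to 0.70), *TLR3* (-0.46 to 0.79), *IFIH1* (-0.20 to 0.19) and *MAVS* (-0.35 to 0.25). For the interaction they were *IRF7* (-0.10 to 0.20), *STAT2* (-0.0356 to 0.25), *IRF9* (-0.13 to 0.67), *TLR3* (-0.32 to 0.93) and *MAVS* (-0.43 to 0.17). With 2 libraries a group, leaving one out assumes that the lone library varies like the others. Depth limits *TLR3*, at 4 to 11 reads in depleted libraries, and to a lesser degree *IRF9*.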
